A study of Mus musculus with 17 samples.

Results

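The genes described here carry glucose into the mouse muscle fibre, store it as glycogen, break it down through glycolysis and decide what becomes of the pyruvate. The list held 38 genes, taken by symbol or older alias, and 34 of them had a named probe on the array, among 16593 named genes in all. All 4 genes of uptake and phosphorylation and all 11 genes of glycogen metabolism were measured, as were 12 of 15 genes of glycolysis and 7 of 8 genes of pyruvate fate. Gpi1, Pfkfb1, Eno1 and Ldhb had no listed probe and were not analysed here. Each gene is given by its brightest probe, and 10 of the 34 genes had more than 1.

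Tibialis anterior, a fast muscle of the shin, was taken from male mice aged 8 weeks at day 3 and measured on 17 single-colour bead arrays. Immobile hindlimbs of p53 mKO mice, immobile hindlimbs of littermate control mice and mobile hindlimbs of littermate control mice had 3 arrays each. Muscles of C57BL/6 mice transfected with a p53 plasmid or with a control plasmid had 4 arrays each. There were no arrays of mobile p53 mKO limbs, and the labels neither spell out mKO nor give the strain of the immobilization mice, the promoter of the plasmids or which limbs shared a mouse. The p-values below therefore measure the spread between arrays, which need not be a spread between animals.

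Under insulin or contraction, glucose enters muscle through GLUT4, encoded by Slc2a4, which these signals move to the cell surface. Hexokinase traps it as glucose phosphate, which glycogen synthase adds to the glycogen store or glycolysis turns into pyruvate. Phosphorylase kinase switches on glycogen phosphorylase, which breaks the store down when the muscle contracts. Pyruvate leaves as lactate or enters the mitochondria through pyruvate dehydrogenase, which the pyruvate dehydrogenase kinases hold in check. Fast fibres use muscle forms of many of these enzymes, and other cell types use their own forms.

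All values are on a log2 scale on which 8.21 was the lowest and 15.61 the highest value of the table, so that a difference of 1 is a doubling. Gbe1 and Slc16a1 stayed too dim to be tested in any comparison, and Ppp1r3a too dim in the transfection experiment. Dim genes lie near the floor of the scale, where differences are understated, and this touches Hk1, Pfkfb3, Pgk1 and Slc16a3 most. The tissue matched its label: the mean of 9 skeletal muscle fibre markers lay between 14.66 and 15.05 on every array. The loss and the gain of p53 were not checked at Trp53 itself, which no named probe measured. Array 2 of the p53 plasmid was the lowest of its group for many of the genes below, and the p53 plasmid counts are also given without it. In whole muscle, fewer fibres and less RNA per fibre cannot be told apart.

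The starts of 5 members, chosen by hand, are shown, each as the 150 bases before the transcription start, from RefSeq on GRCm38.p6. Pgam2 and Pgam1, the muscle and the general form of phosphoglycerate mutase, are shown because they moved in opposite directions with the p53 plasmid. Pygm, Fbp2 and Phka1 are among the 13 members that fell in both experiments, and the 5 shown do not stand for the list.
Pgam2, chr11:5803797-5803946, minus strand: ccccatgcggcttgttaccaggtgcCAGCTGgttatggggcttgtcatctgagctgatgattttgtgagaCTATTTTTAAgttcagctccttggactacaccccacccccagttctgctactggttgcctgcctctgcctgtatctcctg
Pgam1, chr19:41911721-41911870, plus strand: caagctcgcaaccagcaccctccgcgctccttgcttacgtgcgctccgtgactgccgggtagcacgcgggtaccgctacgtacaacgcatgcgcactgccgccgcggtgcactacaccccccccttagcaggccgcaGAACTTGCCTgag
Pygm, chr19:6384258-6384407, plus strand: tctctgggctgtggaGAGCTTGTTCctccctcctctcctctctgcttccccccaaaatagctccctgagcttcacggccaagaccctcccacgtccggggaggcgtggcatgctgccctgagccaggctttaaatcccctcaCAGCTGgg
Fbp2, chr13:62858401-62858550, minus strand: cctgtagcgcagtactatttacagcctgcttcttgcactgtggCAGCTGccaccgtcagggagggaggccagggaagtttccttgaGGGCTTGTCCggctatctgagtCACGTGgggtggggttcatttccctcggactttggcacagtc
Phka1, chrX:102644247-102644396, minus strand: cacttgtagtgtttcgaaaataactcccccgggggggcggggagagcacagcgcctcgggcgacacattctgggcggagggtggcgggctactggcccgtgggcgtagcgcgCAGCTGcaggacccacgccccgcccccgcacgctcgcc
Capitals mark matches, on either strand, to CAGCTG, the E-box that MyoD binds, to CACGTG, the E-box that USF and MYC bind, to the MEF2 site and to the p53 half-site. No capital stretch in these sequences holds more than 1 of the motifs. Pgam2 holds CAGCTG and a MEF2 site, Fbp2 holds CAGCTG, a p53 half-site and CACGTG, and Pygm holds a p53 half-site and CAGCTG. Pgam1 holds a p53 half-site alone and Phka1 holds CAGCTG alone. Over the 250 bases before the start, 37 of the 38 members had 53 promoters in the table, which holds 32851. CACGTG occurred in 13.2% of the members' promoters and in 6.0% of all promoters, and CAGCTG in 20.8% and 13%. The MEF2 site occurred in 5.7% and 2.9%, the p53 half-site in 9.4% and 7.1%, and AAGGTCA, the core of the site of estrogen-related receptors, in 3.8% and 4.1%. The p53 half-site was found in 5 member genes, Gys1, Fbp2, Pygm, Pgam1 and Phka1. All but Gys1 are among the genes shown, that of Phka1 lying outside the printed bases. These matches describe the sequences and say nothing of binding.

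Immobilization for 3 days in control mice lowered 13 of the 32 tested members and raised 2. The background was 6.36% of 10842 genes fallen and 5.1% risen, which is 690 and 553 genes. It depended on single arrays: without mobile control array 1, 2 or 3 it was 529, 382 or 426 genes fallen and 335, 232 or 267 risen. Without 1 immobile array of either genotype it was 523 to 728 genes fallen and 456 to 678 risen. The median of the members was -0.228, against 0.00333 over all genes. The falls reached GLUT4, glycogen synthase, phosphorylase with its kinase, several steps of glycolysis, and the lactate route. The rises were Stbd1 and Pfkfb4. Over these arrays 0 of 9 fibre markers were called and 1 of 8 tested macrophage markers rose. The mean of the macrophage list lay between 9.99 and 11.26 in immobile control limbs and between 9.59 and 9.67 in mobile control limbs, and its part in the members' changes was not tested. Adjusted p-values are from limma with Benjamini-Hochberg adjustment over all genes tested, and errors after a difference are SE.

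Uptake changed at Slc2a4. Slc2a4 read 12.44, 12.29 and 11.79 in immobile p53 mKO limbs and 12.27, 12.46 and 11.86 in immobile control limbs, against 13.22, 13.20 and 13.10 in mobile control limbs. Every immobile array of either genotype lay below every mobile array, and the fall in control mice was -0.98 ± 0.19 (adjusted p = 0.0156). That call was lost when any 1 mobile control array was left out, with adjusted p from 0.0512 to 0.0665 and differences from -0.95 to -1.01. Hk2 read 14.16, 14.32 and 14.03 in immobile p53 mKO limbs and 14.08, 14.32 and 14.28 in immobile control limbs, against 14.14, 14.24 and 14.18 in mobile control limbs. Hk2, the main muscle hexokinase, thus overlapped in all 3 groups (0.04 ± 0.09, adjusted p = 0.824). Slc2a1 read 9.54, 9.86 and 9.59 in immobile p53 mKO limbs and 9.56, 9.70 and 9.49 in immobile control limbs, against 9.54, 9.61 and 9.54 in mobile control limbs. Hk1 read 8.50, 8.43 and 8.44 in immobile p53 mKO limbs and 8.57, 8.43 and 8.42 in immobile control limbs, against 8.44, 8.41 and 8.54 in mobile control limbs. Slc2a1, which encodes the basal carrier GLUT1, and Hk1, the widely expressed hexokinase, did not pass the test either.

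Glycogen genes gave 4 falls and 1 rise among 10 tested (median -0.318). Gys1 read 9.48, 9.26 and 9.13 in immobile p53 mKO limbs and 9.28, 9.41 and 9.08 in immobile control limbs, against 10.10, 10.52 and 10.33 in mobile control limbs. Gys1, muscle glycogen synthase, was lower on every immobile array and fell by 1.06 ± 0.13 in control mice (adjusted p = 0.00265), the largest fall of the list. Pygm read 13.65, 13.44 and 13.49 in immobile p53 mKO limbs and 13.50, 13.60 and 13.66 in immobile control limbs, against 13.98, 14.11 and 14.07 in mobile control limbs. Pygm, muscle glycogen phosphorylase, fell with no overlap (-0.47 ± 0.07, adjusted p = 0.00476). Phka1 read 12.04, 11.68 and 11.79 in immobile p53 mKO limbs and 11.60, 11.87 and 11.90 in immobile control limbs, against 12.55, 12.32 and 12.35 in mobile control limbs. Phka1, the regulatory alpha subunit of muscle phosphorylase kinase, likewise fell without overlap (-0.62 ± 0.12, adjusted p = 0.0137). Phkb read 11.86, 11.89 and 11.70 in immobile p53 mKO limbs and 11.39, 11.71 and 11.58 in immobile control limbs, against 11.94, 11.98 and 11.87 in mobile control limbs. For Phkb, the beta subunit, the immobile control arrays lay below all mobile arrays, and the immobile p53 mKO arrays overlapped with the mobile ones (immobile control minus mobile control -0.37 ± 0.09, adjusted p = 0.03). Phkb lost its call without any 1 mobile control array, without immobile control array 3 or without immobile p53 mKO array 1, with adjusted p from 0.0517 to 0.1185.

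Phkg1 read 12.96, 13.07 and 12.33 in immobile p53 mKO limbs and 12.68, 13.01 and 12.52 in immobile control limbs, against 13.37, 13.49 and 13.44 in mobile control limbs. Phkg1, the catalytic gamma subunit in muscle, lay lower on all immobile arrays but missed the threshold (-0.70 ± 0.20, adjusted p = 0.0605), and passed it without immobile p53 mKO array 3 (adjusted p = 0.0126). Stbd1 read 12.26, 12.31 and 12.28 in immobile p53 mKO limbs and 12.38, 12.33 and 12.64 in immobile control limbs, against 11.42, 11.57 and 11.67 in mobile control limbs. Stbd1, which tethers glycogen to membranes, stood above the mobile arrays on every immobile array and rose by 0.90 ± 0.09 in control mice (adjusted p = 0.00103). Ppp1r3c read 13.87, 14.07 and 13.91 in immobile p53 mKO limbs and 13.88, 14.00 and 13.83 in immobile control limbs, against 14.30, 14.06 and 14.15 in mobile control limbs. Ppp1r3c, a phosphatase subunit that targets glycogen and favours its synthesis, missed the threshold at -0.27 ± 0.08 (adjusted p = 0.0736). Gyg, the glycogenin primer, differed by -0.17 ± 0.10 and Ugp2, which makes the activated glucose for synthesis, by -0.10 ± 0.13, and neither passed. Ppp1r3a, the other targeting subunit, sat at the floor, as did Gbe1, the branching enzyme.

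In glycolysis 6 of 12 tested members fell and 1 rose (median -0.203). Tpi1 read 14.50, 14.41 and 14.34 in immobile p53 mKO limbs and 14.50, 14.33 and 14.31 in immobile control limbs, against 15.04, 15.17 and 15.06 in mobile control limbs. Tpi1, triose phosphate isomerase, fell by 0.71 ± 0.07 in immobile control limbs, with no overlap (adjusted p = 0.000794). Pgam2 read 14.26, 14.25 and 14.32 in immobile p53 mKO limbs and 14.21, 13.88 and 14.20 in immobile control limbs, against 14.50, 14.71 and 14.55 in mobile control limbs. Pgam2, the muscle mutase, fell by 0.49 ± 0.09 (adjusted p = 0.0148), a call lost without mobile control array 2 (-0.43, adjusted p = 0.0632). Fbp2 read 10.77, 10.84 and 10.58 in immobile p53 mKO limbs and 10.51, 10.37 and 10.78 in immobile control limbs, against 11.31, 11.14 and 11.74 in mobile control limbs. Fbp2, the muscle fructose bisphosphatase of the reverse step, fell by 0.84 ± 0.17 (adjusted p = 0.0154). Pfkfb4 read 12.49, 12.61 and 12.48 in immobile p53 mKO limbs and 12.26, 12.66 and 12.61 in immobile control limbs, against 11.88, 11.93 and 11.82 in mobile control limbs. Pfkfb4, which makes and removes the bisphosphate that activates phosphofructokinase, lay above the mobile arrays on every immobile array (0.63 ± 0.10, adjusted p = 0.00693).

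Falls were also called at Pkm, Eno3 and Pfkm. Pkm read 14.54, 14.49 and 14.58 in immobile p53 mKO limbs and 14.60, 14.50 and 14.46 in immobile control limbs, against 14.82, 14.86 and 14.76 in mobile control limbs. Pkm, pyruvate kinase, fell by 0.29 ± 0.05 (adjusted p = 0.00843). Eno3 read 15.15, 15.17 and 15.14 in immobile p53 mKO limbs and 15.17, 15.12 and 15.12 in immobile control limbs, against 15.33, 15.43 and 15.40 in mobile control limbs. Eno3, muscle enolase, fell by 0.25 ± 0.04 (adjusted p = 0.00533). Pfkm read 15.10, 15.06 and 15.22 in immobile p53 mKO limbs and 14.96, 15.02 and 15.01 in immobile control limbs, against 15.21, 15.24 and 15.28 in mobile control limbs. Pfkm, muscle phosphofructokinase, fell by 0.25 ± 0.05 (adjusted p = 0.0154), which was lost without mobile control array 2 or 3 (adjusted p = 0.0598 and 0.0626). Pfkfb3 read 8.75, 8.59 and 8.95 in immobile p53 mKO limbs and 8.69, 8.72 and 8.91 in immobile control limbs, against 8.66, 8.72 and 8.71 in mobile control limbs. Pgam1 read 9.11, 8.99 and 8.88 in immobile p53 mKO limbs and 9.62, 9.13 and 8.97 in immobile control limbs, against 8.98, 9.05 and 9.10 in mobile control limbs. Pfkfb3 and Pgam1, the general mutase, overlapped between the groups, and immobile control array 1 was the highest of the immobilization arrays for Pgam1. Aldoa (-0.05 ± 0.05), Gapdh (-0.00 ± 0.04) and Pgk1 (-0.16 ± 0.09) did not pass the test.

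Of the 6 tested genes of pyruvate fate, 2 fell, and both serve lactate. Ldha read 14.55, 14.56 and 14.41 in immobile p53 mKO limbs and 14.48, 14.40 and 14.16 in immobile control limbs, against 14.79, 15.00 and 14.96 in mobile control limbs. Ldha, which makes lactate from pyruvate, fell by 0.57 ± 0.09 without overlap (adjusted p = 0.00767). Slc16a3 read 8.66, 8.57 and 8.65 in immobile p53 mKO limbs and 8.56, 8.57 and 8.60 in immobile control limbs, against 9.22, 9.50 and 9.24 in mobile control limbs. Slc16a3, the lactate exporter MCT4 of fast fibres, fell by 0.74 ± 0.07 to values near the floor (adjusted p = 0.000943). Slc16a1, the carrier MCT1, lay between 8.32 and 8.43 on all 17 arrays and was not tested. Pdk4 read 13.07, 12.32 and 13.24 in immobile p53 mKO limbs and 13.14, 12.46 and 13.71 in immobile control limbs, against 13.37, 12.18 and 13.57 in mobile control limbs. Pdk4, the dehydrogenase kinase known to rise in fasting, differed by 0.06 ± 0.45, and the arrays numbered 2 were the lowest of each of the 3 groups. Pdhb, the beta subunit of the dehydrogenase, was 0.72 ± 0.26 lower but missed the threshold (adjusted p = 0.122), and its alpha subunit Pdha1 (-0.14 ± 0.07) and Pdk2 (-0.21 ± 0.13) did not pass.

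**Figure D1:**
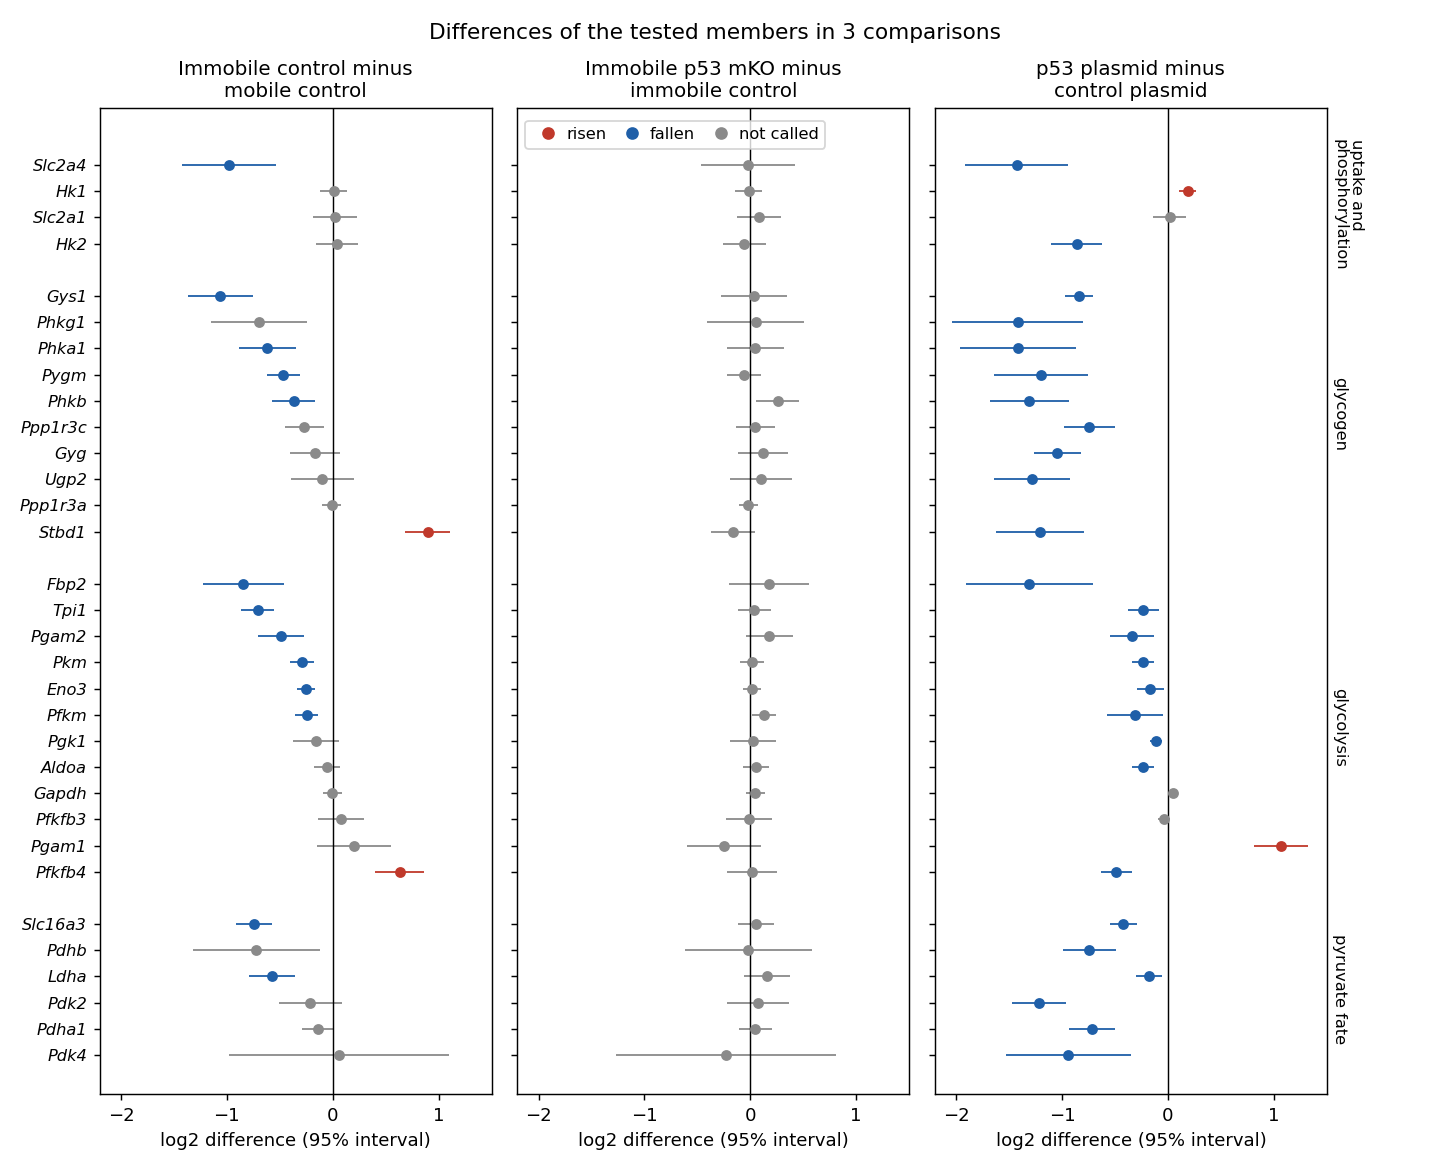
The log2 difference of each tested member, with its 95% interval, in 3 comparisons, with colours for the call and members ordered by role. Most points lie left of 0 in the outer panels, where 13 and 26 members fell, and every interval of the middle panel is grey, with no member called.

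Of 57 other tested genes of the same pathways, 8 fell with immobilization and 1 rose, with a median of -0.033. The falls with the smallest p were Esrra, a receptor that drives oxidative metabolism (-0.81 ± 0.08, adjusted p = 0.000886), its coactivator Ppargc1a (-0.60 ± 0.09, adjusted p = 0.00524), Dlat, the acetyltransferase of pyruvate dehydrogenase (-0.85 ± 0.11, adjusted p = 0.00284) and Pgm1, which links glucose phosphate forms in glycogen turnover (-0.35 ± 0.05, adjusted p = 0.00593). Tigar, named for its induction by p53 in human cells and known to remove the activator of phosphofructokinase, fell by 0.90 ± 0.14 (adjusted p = 0.00625). Txnip, which restrains glucose uptake, differed by 0.24 ± 0.13 and Klf15 by 0.13 ± 0.12, and neither passed.

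Immobile p53 mKO limbs were not separated from immobile control limbs at any member: 0 of 32 rose and 0 fell, against 0% of 10842 genes in each direction with limma. At an unadjusted p under 0.05 the count was 2 of the 32 members and 319 of all genes tested, and the count over all genes became 687 without immobile control array 3 and 512 without immobile control array 2. The members were Phkb, 0.26 ± 0.09 higher in p53 mKO (unadjusted p = 0.0178), and Pfkm, 0.13 ± 0.05 higher (unadjusted p = 0.0276), each with an adjusted p of 1. Both values are those of the brightest probe. The 3 probes of Pfkm ran from -0.09 to 0.13 and their mean differed by 0.02, and 0.26 was the largest difference of the 3 Phkb probes. The p53 mKO and immobile control arrays overlapped for 31 of the 34 measured members. The exceptions were Pfkm and Pgam2, which lay above, and Stbd1, which lay below. The share of all genes separated in this way was not counted, so these exceptions are not read as a result. The 95% interval ran from -0.47 to 0.42 for Slc2a4, from -0.28 to 0.34 for Gys1 and from -0.22 to 0.32 for Phka1, so differences within those ranges were not excluded by these arrays. The median interval reached 0.213 on either side of the estimate, and the widest was that of Pdk4, from -1.26 to 0.81. In the fit blocked on the replicate number the interval of Pdk4 narrowed to -0.52 to 0.06 and that of Slc2a4 to -0.30 to 0.26, and the median was 0.192 on either side. Within the 3 pairs Pdk4 differed by -0.07, -0.14 and -0.47. Of the 32 members 4 were higher in p53 mKO in every pair (Phkb, Ldha, Pfkm and Pgam2) and 3 were lower in every pair (Pdk4, Pgam1 and Stbd1), against 13.8% and 12.3% of all genes, and the blocked fit called none of them (adjusted p = 0.993 for Pdk4). Among the other pathway genes 0 of 57 were called. Rab10, a small GTPase of GLUT4 transport, was 0.34 ± 0.07 higher in p53 mKO limbs, Esrra 0.29 ± 0.08 higher and Dld, a subunit of pyruvate dehydrogenase, 0.50 ± 0.15 higher, with unadjusted p of 0.00125, 0.00606 and 0.0110 and adjusted p of 1.

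Set against the same mobile control arrays, immobile p53 mKO limbs had 10 members fallen and 2 risen of 32, with 5.28% and 4.47% of all genes called in those directions. Over all genes these were 572 falls and 485 rises. Omission of 1 array at a time gave 291 to 683 falls and 156 to 877 rises, both lowest when the second mobile array was left out and both highest without the first immobile control array. The rises lay between 156 and 293 when any mobile control or p53 mKO array was omitted. Both immobile groups are compared with the same mobile arrays, so the results are not independent and are given side by side. Slc2a4 differed by -1.0 ± 0.19 in p53 mKO limbs and by -0.98 ± 0.19 in control limbs. Its call in p53 mKO limbs was lost without any 1 mobile control array (adjusted p from 0.0554 to 0.0701). Gys1 differed by -1.03 ± 0.13 in p53 mKO limbs and by -1.06 ± 0.13 in control limbs. Pygm differed by -0.53 ± 0.07 in p53 mKO limbs and by -0.47 ± 0.07 in control limbs. For Tpi1 the difference was -0.67 ± 0.07 in p53 mKO limbs and -0.71 ± 0.07 in control limbs. Stbd1 was 0.73 ± 0.09 higher in p53 mKO limbs and 0.90 ± 0.09 higher in control limbs, and Pfkfb4 was 0.65 ± 0.10 higher in p53 mKO limbs and 0.63 ± 0.10 higher in control limbs. Phkb (-0.11 ± 0.09), Pfkm (-0.12 ± 0.05) and Pgam2 (-0.31 ± 0.09) did not pass the test in p53 mKO limbs, and the direct comparison of the genotypes did not call them either. With the mean of all its probes Pfkm did pass as fallen in p53 mKO limbs against mobile control limbs (-0.54, adjusted p = 0.015). The 10 falls became 5 without mobile control array 2 and 6 without mobile control array 3.

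**Figure D2:**
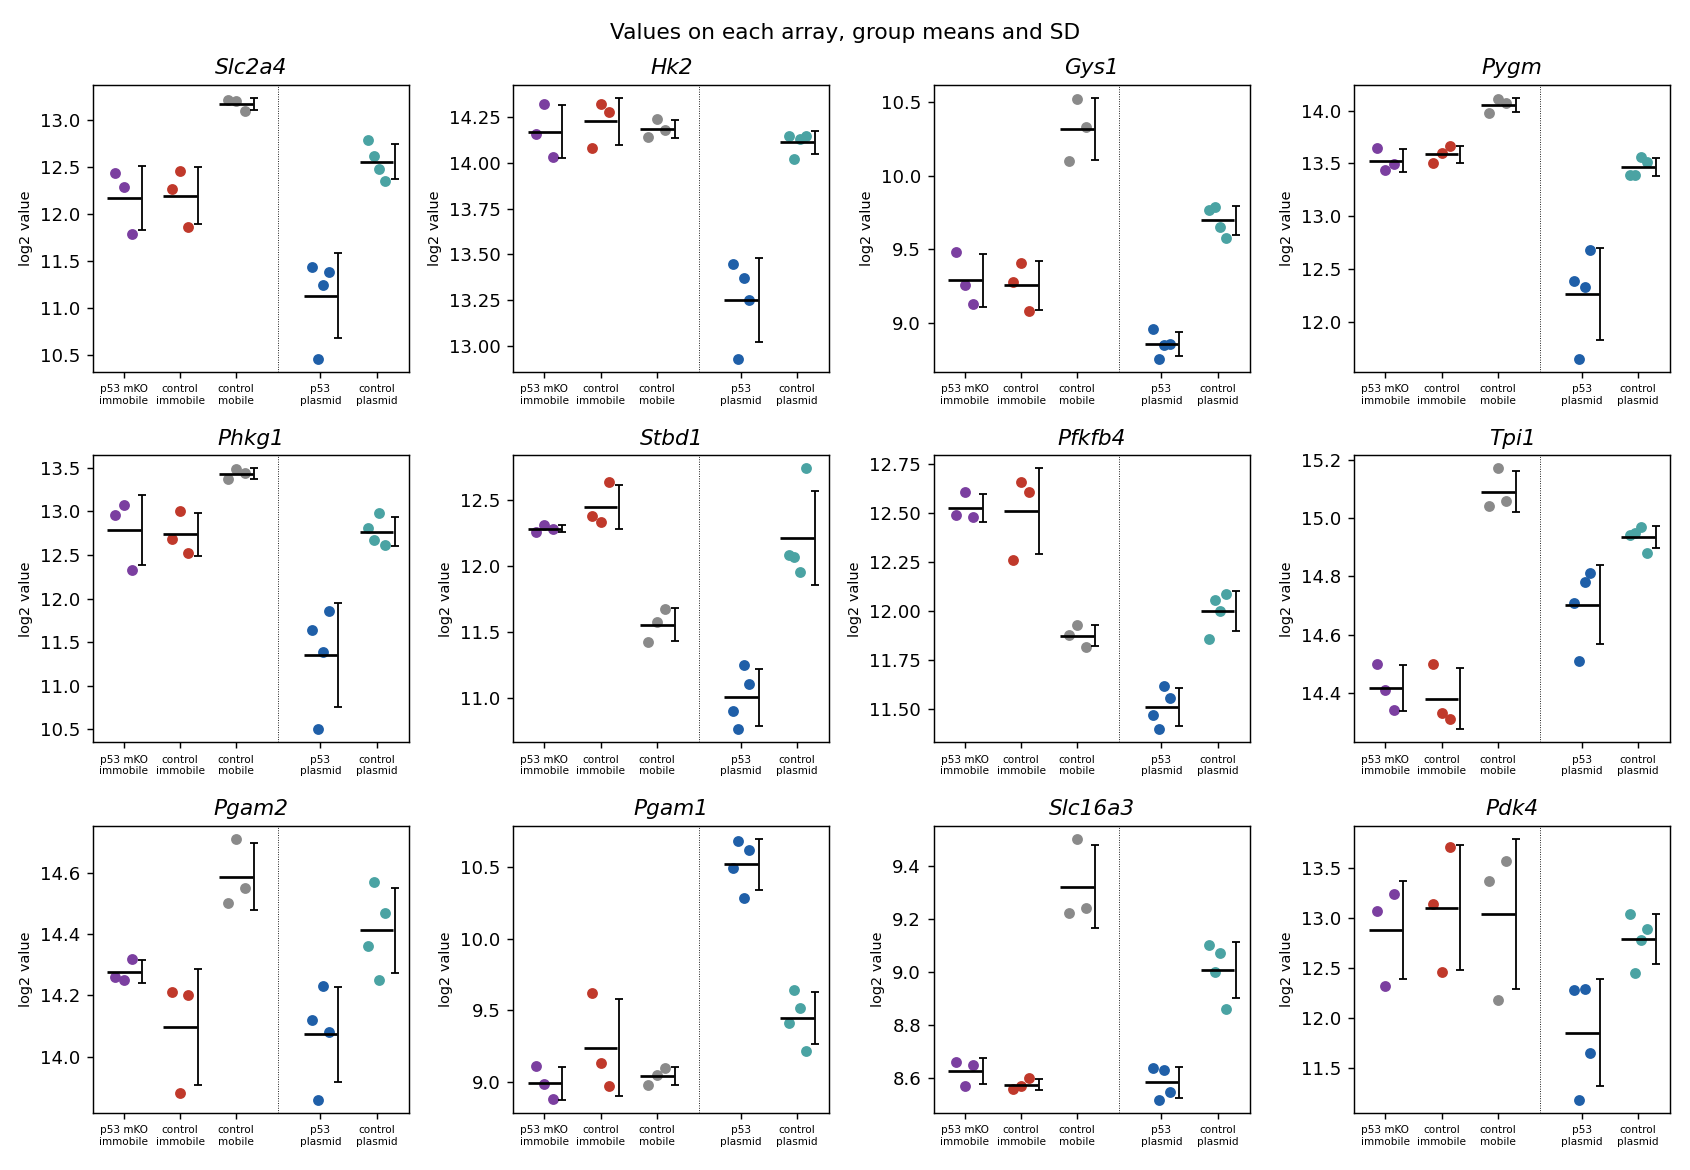
The log2 value of 12 members on each of the 17 arrays, by group, with a line at each group mean and beside it a bar of 1 SD above and below the mean. Slc2a4 and Gys1 are lower in both immobile groups than in mobile limbs and lower with the p53 plasmid than with the control plasmid, whereas Stbd1 is high in the immobile groups and low with the p53 plasmid.

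The p53 plasmid lowered 26 of the 31 tested members and raised 2. Without p53 plasmid array 2 these counts were 25 and 2. The background was wide as well, with 28.6% of 10398 genes fallen and 30.2% risen. The median of the members was -0.715, against 0 over all genes. All 9 tested glycogen genes fell (median -1.208), as did all 6 genes of pyruvate fate (median -0.729), 9 of 12 glycolytic genes (median -0.234) and 2 of 4 genes of uptake (median -0.423). The brightest probes of Pfkm and Tpi1 averaged 15.07 and 14.72, near the top of the scale, and differed by -0.31 and -0.23. Other probes of these genes differed by as much as -1.36 and -0.67. Over the 10 members with several probes, the brightest changed most in 6. Whether the top of the scale understated glycolytic differences was not tested. Over the same arrays 5 of 9 fibre markers fell, by up to 0.60 for Actn3, and the mean of these markers lay between 14.66 and 14.84 with the p53 plasmid and between 14.98 and 15.03 with the control plasmid. The part of those shifts in the members' falls was not tested.

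Slc2a4 read 11.44, 10.46, 11.24 and 11.38 with the p53 plasmid, against 12.79, 12.62, 12.48 and 12.35 with the control plasmid. Slc2a4 lay below the control plasmid on all 4 arrays, lowest on array 2, and fell by 1.43 ± 0.21 (adjusted p = 0.000539). Hk2 read 13.45, 12.93, 13.37 and 13.25 with the p53 plasmid, against 14.15, 14.02, 14.13 and 14.15 with the control plasmid. Hk2 fell by 0.86 ± 0.10 without overlap (adjusted p = 0.000175). Hk1 read 8.79, 8.78, 8.72 and 8.69 with the p53 plasmid, against 8.53, 8.58, 8.52 and 8.61 with the control plasmid. Hk1 rose by 0.19 ± 0.03 near the floor of the scale (adjusted p = 0.00155). Slc2a1 read 9.94, 10, 10 and 9.72 with the p53 plasmid, against 9.94, 9.95, 9.79 and 9.91 with the control plasmid. Slc2a1 overlapped between the plasmids (0.02 ± 0.07, adjusted p = 0.848).

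The 9 tested glycogen members, of synthesis and of breakdown, fell with the p53 plasmid. The 15 other tested glycogen genes gave 6 falls and 6 rises (median -0.062), the rises including Pygl, Pygb, Phka2 and Phkg2. Gys1 read 8.96, 8.76, 8.85 and 8.86 with the p53 plasmid, against 9.77, 9.79, 9.65 and 9.58 with the control plasmid. Gys1 fell by 0.84 ± 0.06 (adjusted p = 1.85e-05), the smallest p of the list. Gyg read 11.61, 11.31, 11.81 and 11.66 with the p53 plasmid, against 12.67, 12.63, 12.57 and 12.70 with the control plasmid. Ugp2 read 11.70, 11.03, 11.60 and 11.55 with the p53 plasmid, against 13.02, 12.63, 12.60 and 12.77 with the control plasmid. Gyg fell by 1.05 ± 0.10 (adjusted p = 4.83e-05) and Ugp2 by 1.29 ± 0.15 (adjusted p = 0.000174), so the RNAs of the primer, of the enzyme that makes the activated sugar and of the synthase were all lower. Ppp1r3c read 12.17, 11.92, 12.08 and 12.01 with the p53 plasmid, against 12.88, 12.86, 12.47 and 12.94 with the control plasmid. Ppp1r3c fell by 0.74 ± 0.10 (adjusted p = 0.000407).

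On the side of breakdown, the phosphorylase and the measured muscle subunits of its kinase all fell. Pygm read 12.39, 11.65, 12.33 and 12.68 with the p53 plasmid, against 13.39, 13.39, 13.56 and 13.51 with the control plasmid. Pygm fell by 1.20 ± 0.19 (adjusted p = 0.000806). Phka1 read 10.96, 10.15, 10.78 and 11.44 with the p53 plasmid, against 12.29, 12.07, 12.27 and 12.36 with the control plasmid. Phka1 fell by 1.42 ± 0.24 (adjusted p = 0.00101). Phkb read 10.50, 9.81, 10.34 and 10.40 with the p53 plasmid, against 11.69, 11.37, 11.80 and 11.42 with the control plasmid. Phkb fell by 1.31 ± 0.16 (adjusted p = 0.000201). Phkg1 read 11.64, 10.50, 11.39 and 11.86 with the p53 plasmid, against 12.81, 12.67, 12.98 and 12.61 with the control plasmid. Phkg1 fell by 1.42 ± 0.27 (adjusted p = 0.00194). In all 4 genes the groups did not overlap and array 2 of the p53 plasmid was the lowest. Stbd1 read 10.90, 10.76, 11.25 and 11.10 with the p53 plasmid, against 12.08, 12.07, 11.95 and 12.74 with the control plasmid. Stbd1 fell by 1.21 ± 0.18 (adjusted p = 0.000565), with control plasmid array 4 well above the other control arrays.

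In glycolysis the called falls ran from 0.11 for Pgk1 to 1.31 for Fbp2. Fbp2 read 10.64, 9.70, 10.90 and 10.18 with the p53 plasmid, against 11.79, 11.65, 11.95 and 11.27 with the control plasmid. Fbp2 fell by 1.31 ± 0.26 (adjusted p = 0.00258). Pfkfb4 read 11.47, 11.40, 11.62 and 11.56 with the p53 plasmid, against 11.86, 12.06, 12 and 12.09 with the control plasmid. Pfkfb4 fell by 0.49 ± 0.06 (adjusted p = 0.000261). Pfkm read 15.02, 14.47, 14.94 and 14.99 with the p53 plasmid, against 15.19, 15.09, 15.22 and 15.17 with the control plasmid. Pfkm fell by 0.31 ± 0.12 (adjusted p = 0.0458), a call that was lost without any 1 control plasmid array or without p53 plasmid array 3 (adjusted p from 0.0607 to 0.1008). Tpi1 read 14.71, 14.51, 14.78 and 14.81 with the p53 plasmid, against 14.94, 14.95, 14.97 and 14.88 with the control plasmid. Pgam2 read 14.12, 13.86, 14.23 and 14.08 with the p53 plasmid, against 14.36, 14.57, 14.25 and 14.47 with the control plasmid. Pkm read 14.50, 14.44, 14.60 and 14.59 with the p53 plasmid, against 14.81, 14.72, 14.82 and 14.72 with the control plasmid. Tpi1 fell by 0.23 ± 0.06, Pgam2 by 0.34 ± 0.09 and Pkm by 0.24 ± 0.04 (adjusted p = 0.0127, 0.0119 and 0.00205). Eno3 read 15.27, 15.07, 15.34 and 15.24 with the p53 plasmid, against 15.38, 15.40, 15.43 and 15.37 with the control plasmid. Eno3 fell by 0.17 ± 0.05 (adjusted p = 0.0285), which was lost without control plasmid array 1, 2 or 3 or p53 plasmid array 4 (adjusted p from 0.0533 to 0.0712). Aldoa fell by 0.24 ± 0.05 and Pgk1 by 0.11 ± 0.03.

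Pgam1 read 10.49, 10.68, 10.28 and 10.62 with the p53 plasmid, against 9.41, 9.64, 9.52 and 9.22 with the control plasmid. Pgam1 was the exception in glycolysis: all 4 p53 plasmid arrays lay above the control plasmid, a rise of 1.07 ± 0.11 (adjusted p = 7.97e-05). Pfkfb3 read 8.50, 8.51, 8.49 and 8.44 with the p53 plasmid, against 8.52, 8.52, 8.52 and 8.53 with the control plasmid. Pfkfb3 lay at the floor and was not called, and Gapdh, whose reading is near the top of the scale, differed by 0.05 ± 0.02 (adjusted p = 0.0994).

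Genes of pyruvate dehydrogenase and of its kinases fell with the p53 plasmid. Pdk2 read 9.62, 9.09, 9.47 and 9.34 with the p53 plasmid, against 10.73, 10.52, 10.67 and 10.48 with the control plasmid. Pdk2 fell by 1.22 ± 0.11 (adjusted p = 4.77e-05). Pdk4 read 12.28, 11.18, 12.29 and 11.65 with the p53 plasmid, against 13.04, 12.45, 12.78 and 12.89 with the control plasmid. Pdk4 fell by 0.94 ± 0.26 (adjusted p = 0.0127), again with array 2 lowest in each group. Pdha1 read 13.26, 12.79, 13.08 and 13.07 with the p53 plasmid, against 13.89, 13.75, 13.73 and 13.69 with the control plasmid. Pdha1 fell by 0.72 ± 0.09 (adjusted p = 0.000275), and Pdhb by 0.74 ± 0.11 (adjusted p = 0.000525). Slc16a3 read 8.64, 8.52, 8.63 and 8.55 with the p53 plasmid, against 9.10, 9.0, 9.07 and 8.86 with the control plasmid. Slc16a3 fell by 0.42 ± 0.06 (adjusted p = 0.000292). Ldha read 14.82, 14.63, 14.81 and 14.63 with the p53 plasmid, against 14.95, 14.83, 14.90 and 14.93 with the control plasmid. Ldha fell by 0.18 ± 0.05 (adjusted p = 0.0207), a call lost without control plasmid array 1 or 4 or p53 plasmid array 2 or 4 (adjusted p from 0.0506 to 0.0564).

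Among the other pathway genes, 29 of 55 fell and 15 rose with the p53 plasmid (median -0.155), against 28.6% of all genes fallen and 30.2% risen, so the share of rises was no higher than the background. Pfkfb2, another enzyme of the phosphofructokinase activator, fell by 0.51 ± 0.04 (adjusted p = 2.61e-05). Gaa, which digests glycogen in lysosomes, fell by 0.89 ± 0.07 (adjusted p = 3.28e-05), and G6pc3, a glucose phosphatase, by 0.49 ± 0.04 (adjusted p = 3.81e-05). Tigar lay between 8.59 and 8.77 with the p53 plasmid, against 9.38 to 9.68 with the control plasmid, and fell by 0.80 ± 0.08 (adjusted p = 5.77e-05). Txnip fell by 0.46 ± 0.07 and Pgm1 by 0.62 ± 0.10, while Klf15 was not called (-0.07 ± 0.03).

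The rises included forms of the same enzymes other than the main muscle form. Hk3, a hexokinase of white blood cells, lay between 10.63 and 11.01 with the p53 plasmid, against 9.20 to 9.62 with the control plasmid, and rose by 1.38 ± 0.11 (adjusted p = 2.5e-05). The forms that follow were chosen after their values were seen. Pfkp rose by 0.66 ± 0.06 and Pfkl by 0.47 ± 0.06, while the muscle form Pfkm fell. Pygl, the liver phosphorylase, rose by 0.67 ± 0.07 and Pygb, the brain form, by 0.57 ± 0.07, while Pygm fell. Phka2 and Phkg2, the liver subunits of phosphorylase kinase, rose by 0.15 ± 0.04 and 0.16 ± 0.04, while Phka1 and Phkg1 fell. With them, 8 of 9 tested macrophage markers rose and none fell, and the mean of the macrophage list lay between 11.80 and 11.95 with the p53 plasmid and between 10.75 and 11.07 with the control plasmid. Of the fibroblast markers 3 of 7 rose, and 6 of 7 endothelial markers fell. Among tested neutrophil markers 2 of 4 rose and none fell, and 1 of 3 Schwann markers fell. No tested lymphocyte, erythroid or adipocyte marker was called. The part of these cell types in the rises of Pgam1, Hk1 and the forms named here was not tested.

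**Figure D3:**
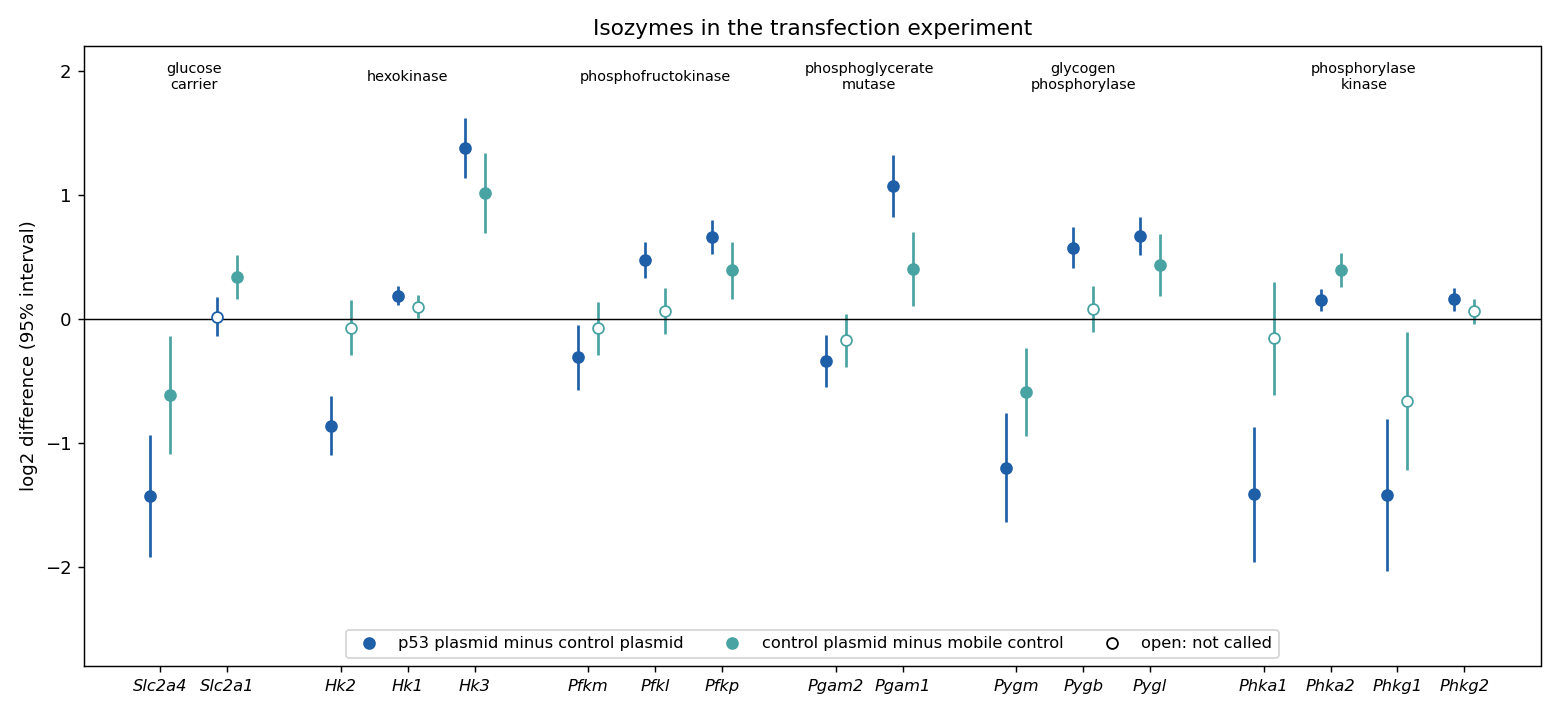
The log2 difference with its 95% interval for muscle and other forms of 6 enzymes or carriers, p53 plasmid minus control plasmid in blue and control plasmid minus mobile control in teal, with open points not called (the comparisons share the control plasmid arrays). The forms were chosen after their values were seen, so the contrast of muscle forms below 0 and other forms at or above 0 in blue was fixed by that choice, and Pfkfb2, a form that fell by 0.51, is not drawn.

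Control plasmid muscle was already unlike mobile muscle of the other experiment, and experiment, strain label and transfection cannot be told apart in this comparison. Of 32 tested members, 8 were lower and 3 higher with the control plasmid, with 21.1% and 15.9% of 11432 genes called in those directions. Ppp1r3c was 1.38 ± 0.10 lower (adjusted p = 2.8e-07), with every control plasmid array below every mobile array. Gys1 was 0.62 ± 0.11 lower, Slc2a4 0.61 ± 0.22 lower, Pdk2 0.60 ± 0.13 lower and Pygm 0.59 ± 0.16 lower. Stbd1 was 0.66 ± 0.16 higher, Pgam1 0.40 ± 0.14 higher and Slc2a1 0.33 ± 0.08 higher. Slc2a4 lost its call without any 1 mobile control array or without control plasmid array 2, 3 or 4 (adjusted p from 0.0651 to 0.1053), and Pgam1 without any 1 mobile control array or without control plasmid array 1, 2 or 3 (adjusted p from 0.0534 to 0.1007). No glycolytic member was lower at the threshold with its brightest probe in the main fit. Pfkm passed as lower with its most variable probe (-0.75, adjusted p = 0.0349) but not with the mean of its probes (adjusted p = 0.104). Pfkfb3 passed as lower with quantile normalization, another spread estimate or array weights (adjusted p from 0.00456 to 0.0477). Tpi1 passed as lower with array weights (adjusted p = 0.0277), and its most variable probe differed by 0.12 and was not called. The 8 lower members became 5 without mobile control array 1 or 3 or control plasmid array 4. Hk3 was 1.02 ± 0.15 higher with the control plasmid (adjusted p = 0.000138), Pdk3 0.34 ± 0.05 higher, Dlat 0.88 ± 0.11 lower and Epm2a, a glycogen phosphatase, 0.41 ± 0.07 lower. Over the same arrays 8 of 9 macrophage markers were higher and 1 lower, and 7 of 7 endothelial markers were lower. Of the tested lymphocyte markers 3 of 3 were higher, and of the erythroid markers 3 of 4 were lower. Of 9 fibre markers 1 was higher and 2 lower, and 1 of 7 fibroblast and 1 of 4 adipocyte markers were lower. The part of these cell types in the members' differences was not tested.

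The effects of the p53 plasmid and of immobilization share no array. All 13 members that fell with immobilization also fell with the p53 plasmid, which is 13 of the 26 that fell with the plasmid. Over all 10059 genes tested in both comparisons, 556 of the 688 that fell with immobilization (80.8%) also fell with the plasmid. These 556 were 18.8% of the 2965 genes that fell with the plasmid. A further 11 members fell with the plasmid and were not called with immobilization. Stbd1 and Pfkfb4, the 2 rises of immobilization, fell with the plasmid, as did 83 of the 552 genes (15.0%) that rose with immobilization over all genes. The difference between the effects was tested in 1 fit of all arrays, where the background was 11% of 11432 genes with a lower plasmid effect and 12.4% with a higher one. The plasmid effect was lower at 10 of 32 members and higher at 4.

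Glycogen genes accounted for 6 of the 10. Stbd1 differed most, by -2.10 ± 0.23 (adjusted p = 0.000106), with immobilization raising it and the plasmid lowering it. The control plasmid arrays of Stbd1 started higher than the mobile ones (0.66), and those of Ppp1r3c started lower (-1.38). The part of these starts in the differences was not tested. Ugp2 differed by -1.19 ± 0.22, Phkb by -0.94 ± 0.21, Gyg by -0.88 ± 0.15, Pygm by -0.73 ± 0.23 and Ppp1r3c by -0.48 ± 0.14. Pfkfb4 differed by -1.12 ± 0.12 (adjusted p = 0.000106), Pdk2 by -1.01 ± 0.18, Hk2 by -0.90 ± 0.15 and Pdha1 by -0.58 ± 0.12. In the other direction, Pgam1 differed by 0.87 ± 0.20, and Tpi1 (0.48 ± 0.10), Ldha (0.39 ± 0.11) and Slc16a3 (0.32 ± 0.09) fell further with immobilization than with the plasmid. Both falls of Slc16a3 ended near the floor, and its control plasmid arrays started lower than the mobile ones (-0.31). The part of the floor in its smaller plasmid fall was not tested. The call of Gyg was lost when its more variable probe was used (-0.71, adjusted p = 0.2498). The 3 Phkb probes ran from -0.94 to -0.04, and 1 passed when p-values were adjusted over all probes. Some of the calls on the difference between the effects rested on single arrays. That of Pygm was lost without any 1 mobile control array, without immobile control array 2 or 3, or without control plasmid array 3 or 4 (adjusted p from 0.0585 to 0.0767). For Ppp1r3c, omission of p53 plasmid array 2, of control plasmid array 1, 2 or 4, of immobile control array 2, or of mobile control array 2 or 3 ended it (adjusted p from 0.0515 to 0.0777). Ldha lost its call without mobile control array 2 or 3 (adjusted p = 0.0574 and 0.053), and Slc16a3 when either immobile control array 2 or mobile control array 2 was left out (adjusted p = 0.055 and 0.0546). For Slc2a4 (-0.45 ± 0.31, adjusted p = 0.338), Gys1 (0.22 ± 0.15, adjusted p = 0.327) and Fbp2 (-0.47 ± 0.34, adjusted p = 0.376) the difference between the effects did not pass the test, and the 95% interval for Slc2a4 ran from -1.12 to 0.22. The control plasmid arrays of Gys1 and Slc2a4 also started lower than the mobile ones (-0.62 and -0.61). The part of these starts, and of the floor for Gys1, was not tested. Of the other pathway genes, 13 of 59 had a lower plasmid effect and 4 a higher one, Gaa (-1.35 ± 0.15), Gpt2 (-1.55 ± 0.25), Mlxipl (-0.79 ± 0.17) and Txnip (-0.69 ± 0.15) being the lower ones with the smallest p.

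**Figure D4:**
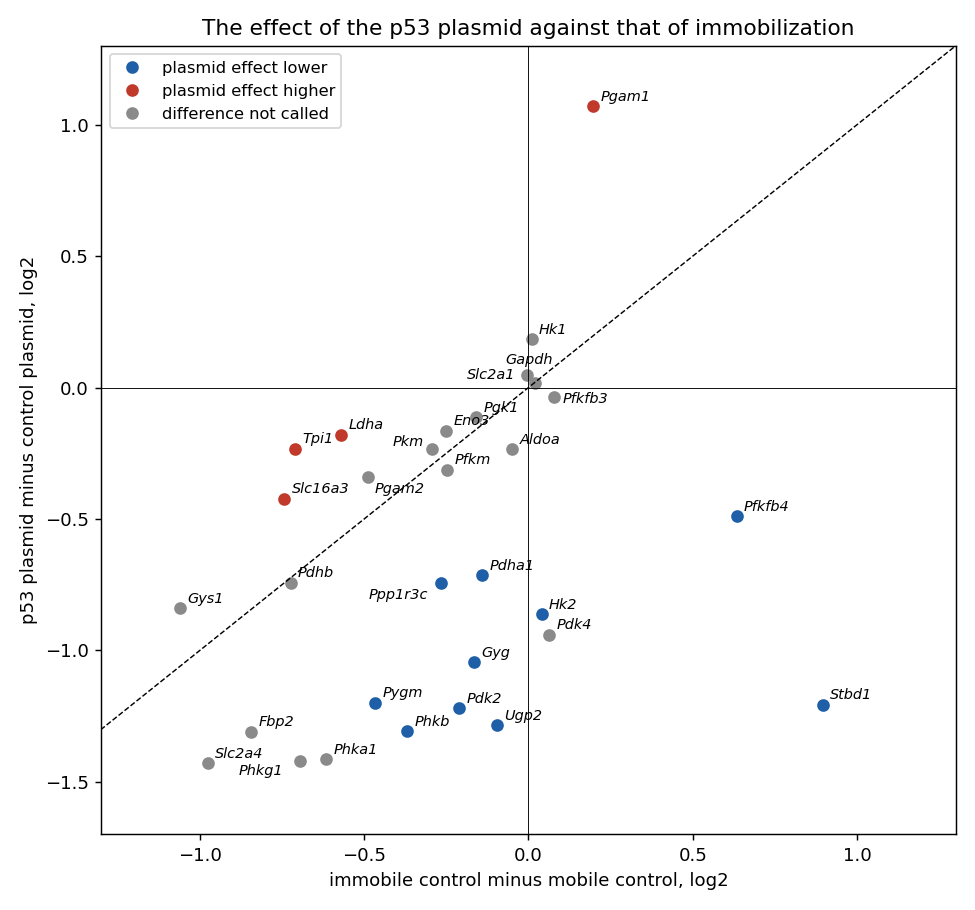
Each point is a tested member, placed by its log2 difference with immobilization (horizontal) and with the p53 plasmid (vertical), with colours for the test of the difference between the effects and a dashed line where they are equal. Slc2a4, Gys1 and Fbp2 are low on both axes, Stbd1 and Pfkfb4 lie to the right and below 0, and Pgam1 stands alone at the top.

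Of the members, 10 could be read on several probes, 49 probes serving the 34 genes. With immobilization the probes of 8 of these 10 genes shared a sign, and in 6 of the 10 the brightest probe did not show the largest change. With the p53 plasmid these counts were 9 and 4. The 3 probes of Pfkm differed by -0.25, -0.36 and -1.05 with immobilization, from the brightest to the dimmest, and by -0.31, -0.93 and -1.36 with the p53 plasmid. Those of Tpi1 differed by -0.71, -1.02 and -0.48 with immobilization. The rise of Pfkfb4 with immobilization was seen on its bright probe (0.63) and not on its dim one (-0.05), and the mean of both probes was not called (0.29, adjusted p = 0.163). The called falls of Phkb were likewise those of its bright probe: its 3 probes differed by -0.37, -0.08 and 0.02 with immobilization, where none passed when p-values were adjusted over all probes, and by -1.31, -0.12 and -0.01 with the p53 plasmid, where 1 of the 3 passed. Slc16a3 rested on 1 of its 3 probes in both comparisons, the others differing by -0.03 and -0.01 in each at values near the floor. The brightest probe of Gapdh differed by 0.05 with the p53 plasmid and its other probe by -0.15, and with that probe in its place Gapdh passed the test as fallen (adjusted p = 0.00176). Small differences of the brightest glycolytic probes are therefore given for those probes alone.

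**Figure D5:**
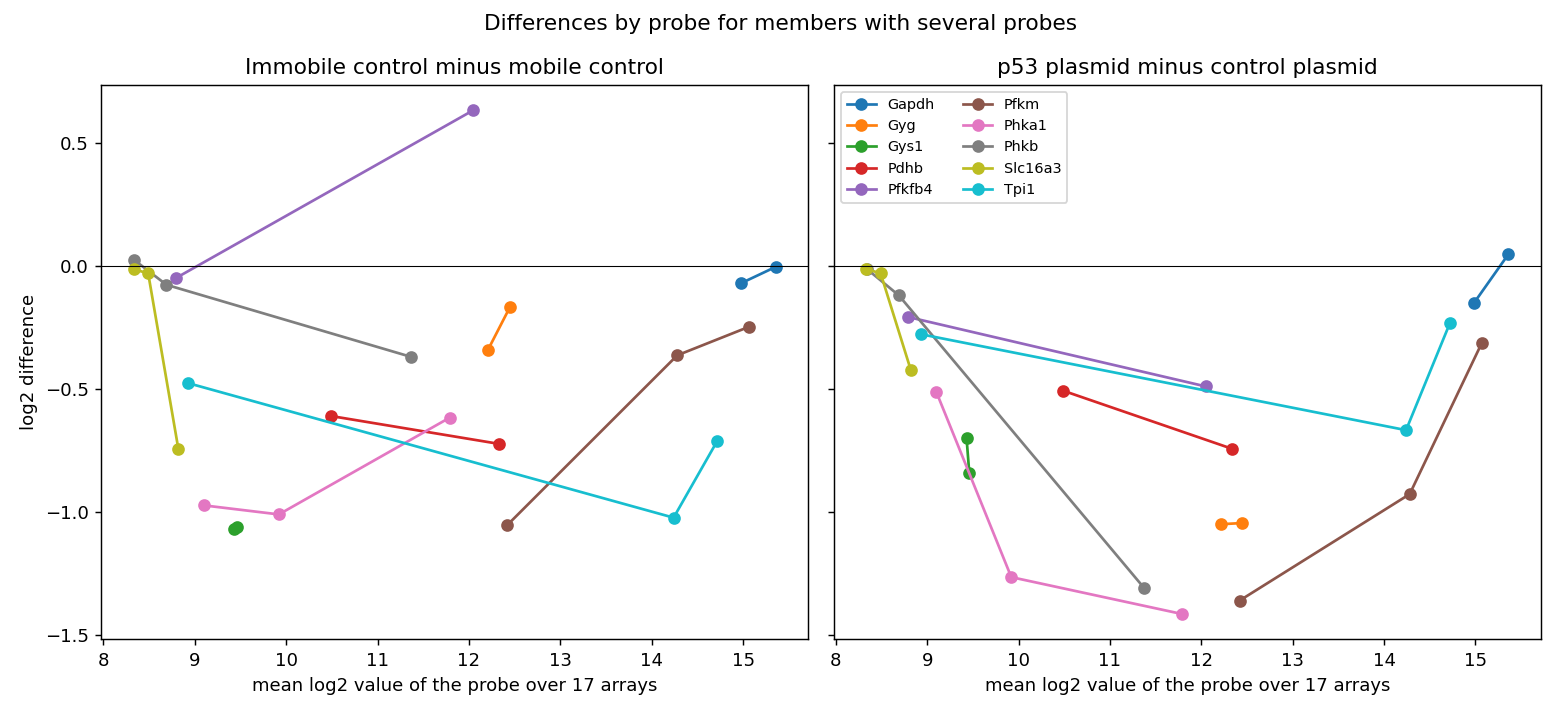
The log2 difference of every probe of the 10 members with several probes against the probe's mean log2 value over the 17 arrays, with lines joining probes of 1 gene. The 3 Pfkm probes slope upward to the right in both panels, the brightest showing the smallest difference.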

How the data were processed

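Gene expression was measured in 17 muscle samples, 1 array each, grouped by the labels. The authors deposited normalized values, taken here as log2 from their range. The log base, normalization and background correction are not given in the sources used here. Array medians lay between 8.48 and 8.5, and no depth or detection value was used, so the number of arrays limits the precision.

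Of 25697 probes, 23978 had 1 gene symbol, 0 had several and 1719 had none, and 99.9% of the named probes matched the reference gene table. Each of 16593 genes was represented by its brightest probe over all arrays. A gene was tested when above the 40th percentile of the array on at least 3 arrays (immobilization, and the fit of all 17) or 4 arrays (transfection). Linear models with moderated variances (limma 3.58.1, R 4.3.3) were fitted to 9 immobilization arrays, 8 transfection arrays or all 17, and adjusted by Benjamini-Hochberg over all genes tested, with a threshold of 0.05. Scripts were tested on simulated data.

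The members and lists were chosen with earlier results of these data known. Array values are given for the largest called changes (up to 8 falls and 4 rises), up to 3 members of each role with the smallest p, rate-controlling members and isozyme pairs. Of the other pathway genes, up to 4 with the smallest p were named in each comparison, plus Tigar, Txnip, Klf15 and Pgm1; another gene of this rule is not reported here. Same-numbered immobile p53 mKO and immobile control arrays deviated together (r = 0.622, 0.485 and 0.814), so the numbers were taken to pair these 2 groups, and no member was called with the replicate number as a block either. Alternatives changed the normalization, filter, probe, spread estimate, array weights, arrays in the fit, block and arrays left out.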

Additional observations from a re-analysis of the deposited data

Results flagged for a closer look

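In the groups of 4 arrays, 7 of 68 sets of member values held 1 array apart from the other 3. Chance flags about 1 in 20 such groups. On p53 plasmid array 2, Pdhb was 11.39, against 11.80 to 11.81 on the others, and Pfkm was 14.47, against 14.94 to 15.02. Among control plasmid arrays, Stbd1 was 12.74 on array 4, against 11.95 to 12.08, and Ppp1r3c was 12.47 on array 3, against 12.86 to 12.94. Hk2 was 14.02 on control plasmid array 2, against 14.13 to 14.15. Near the floor, Gbe1 was 8.29 on control plasmid array 3, against 8.34 to 8.35, and Pfkfb3 was 8.53 on control plasmid array 4, against 8.52 on the others.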

How the results depend on the processing

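No called difference of a member turned its direction under any alternative run. Of the calls made, those kept under every alternative were 10 of 15 with immobilization, 6 of 12 between immobile p53 mKO and mobile control limbs, 24 of 28 with the p53 plasmid, 7 of 11 for control plasmid against mobile control, and 9 of 14 for the difference between the effects. Taking the mean of all probes left 1 member risen instead of 2 for each immobile group against mobile limbs, Pfkfb4 being lost in both. With array weights the members with a higher plasmid effect numbered 7 instead of 4. Leaving out 1 array at a time gave 9 to 14 falls and 2 rises with immobilization, 5 to 11 falls and 2 rises between immobile p53 mKO and mobile control limbs, and 23 to 26 falls and 2 rises with the p53 plasmid. It gave 5 to 7 falls and 2 to 3 rises for control plasmid against mobile control, and 8 to 12 lower and 3 to 5 higher plasmid effects. Between the genotypes of immobile limbs it gave 0 calls throughout. With the replicate number as a block, 14 members fell with immobilization, Phkg1 being gained (adjusted p = 0.0261), 11 fell in immobile p53 mKO against mobile control limbs, 26 fell with the p53 plasmid and 12 plasmid effects were lower. The numbers pair only the immobile groups, where the block called 0 genes at the threshold, 438 at an unadjusted p under 0.05, and 712 with only these groups in the fit, an alternative chosen after seeing the data. Array weights raised the count over all genes with immobilization to 1449 risen and 1348 fallen, against 553 and 690, and for immobile p53 mKO against mobile control limbs to 1138 and 1066, against 485 and 572. Fitting only these groups gave 921 and 724. Dim genes are limited by the floor, and all genes by 3 or 4 arrays a group. A limit for bright genes at the top of the scale was not tested.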
